A study of Mus musculus with 46 samples.

Results

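The 9 genes described here, Adcy1 to Adcy9, encode the membrane-bound adenylyl cyclases of the mouse. They were taken by name from 22238 protein-coding genes, and all 9 were found. For each gene, every peak that overlapped the interval from 1 kb before the gene start to 1 kb past the gene end was collected in 30 peak lists. The paper gives Adcy7 as an example of falling levels of the histone variant H3.3 in these libraries. The family was examined with that loss known, and its other members were taken without regard to any measured value. The question was whether the loss at Adcy7 was shared by the rest of the family. Shares of all genes set beside Adcy7 below show how common its pattern was and do not test it.

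Adenylyl cyclases make the second messenger cyclic AMP (cAMP) from ATP when G protein coupled receptors at the cell surface are engaged. All membrane cyclases are stimulated by the alpha subunit of Gs, and the isoforms differ in the other signals they read. ADCY1, ADCY3 and ADCY8 respond to calcium and calmodulin, ADCY2, ADCY4 and ADCY7 are further stimulated by G protein beta-gamma subunits, ADCY5 and ADCY6 are inhibited by Gi and by calcium, and ADCY9 is the member least sensitive to the plant compound forskolin. Cyclic AMP then acts through protein kinase A, Epac proteins and CREB, and phosphodiesterases break it down. H3.3 is the H3 variant laid down outside replication, H3K4me3 marks gene starts in use or held ready, and H3K36me3 marks transcribed gene bodies.

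ChIP-Seq libraries of these 3 marks were made while mouse embryonic fibroblasts (MEFs) that carry an Oct4-GFP reporter were turned into induced pluripotent stem (iPS) cells with retroviral (pMXs) Oct4, Sox2, Klf4 and c-Myc. D0 cells were fibroblasts on day 0 and D3 cells were unsorted on day 3. Cells on the successful route lacked the fibroblast surface protein Thy-1 on days 6 and 9 (D6T-, D9T-) or carried the pluripotency antigen SSEA-1 on days 12 and 16 (D12S+, D16S+), and the unsuccessful fractions of the same days were D6T+, D9T+, D12S- and D16S-. Fully reprogrammed cells (iPSCs) and embryonic stem cells of the line ESD3, which received no factors, completed the 12 H3.3 libraries of this series. H3K4me3 and H3K36me3 were each profiled in 7 libraries, D0 to iPSCs without the unsuccessful fractions. In a second system, 4 H3.3 libraries followed transdifferentiation after SLBR induction, the blood factors Scl, Lmo2, Bmi and Runx1: MEF on day 0, D4 on day 4, and fully transdifferentiated cells sorted as cKit+ or cKit-. Per the paper's methods, fibroblasts for this system were first sorted free of cells with hematopoietic surface markers. Transduced cells were then grown with inactivated stromal cells and cytokines. Every group had 1 library, so the differences below have no replicate check. The cells of a fraction were pooled, so that fewer cells with a mark and less of the mark per cell cannot be told apart.

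The unit of every sum below is the HOMER normalized tag count of the peaks of a gene, scaled to 10 M tags per library and not divided by length. Intervals in parentheses are 95% Poisson intervals and cover counting error only. A gene was counted as lower or higher where its sums differed by at least 2-fold or where it had peaks in only 1 of the libraries compared. Libraries held 13.2 to 91.8 M tags, and 1.07% to 42.4% of them lay inside peaks, so a gene without a peak is one whose signal stayed under the calling limits of that library. D12S+ and D16S+ were weakly enriched for all 3 marks. Fibroblast markers checked the starting cells, with H3.3 peaks at 10 of 10 in D0 and at 2 of 10 in iPSCs, and pluripotency markers had peaks at 4 of 10 in D0, without Nanog and Pou5f1, and at 10 of 10 in iPSCs. Epithelial markers had peaks at 3 of 5 in D0 and 5 of 5 in iPSCs, and neural markers at 3 of the 4 matched in both.

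Adcy7 lies on chromosome 8 (mm9, 90796302 to 90853861, plus strand, ENSMUSG00000031659.5) and spans 57.6 kb. GENCODE vM1 gives it more than a single transcript start, and these starts carried different marks in D0 fibroblasts. The 250 bases upstream of the starts that the results turn on are given from the mm9 genome, read 5′ to 3′ on the strand of the gene. Capitals mark each CpG, the dinucleotide that is dense at many H3K4me3-marked starts. Adcy6, Adcy8 and Adcy3 are shown beside Adcy7 because their starts had H3K4me3 in iPSCs, where those of Adcy7 had none.
Adcy7, first start at 90796302 (chr8:90796052-90796301, plus strand): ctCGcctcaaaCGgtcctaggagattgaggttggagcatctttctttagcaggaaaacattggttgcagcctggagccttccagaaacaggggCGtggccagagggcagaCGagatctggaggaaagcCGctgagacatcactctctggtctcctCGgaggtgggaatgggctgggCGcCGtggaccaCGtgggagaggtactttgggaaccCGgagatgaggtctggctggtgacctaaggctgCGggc
Adcy7, internal start at 90806891 (chr8:90806641-90806890, plus strand): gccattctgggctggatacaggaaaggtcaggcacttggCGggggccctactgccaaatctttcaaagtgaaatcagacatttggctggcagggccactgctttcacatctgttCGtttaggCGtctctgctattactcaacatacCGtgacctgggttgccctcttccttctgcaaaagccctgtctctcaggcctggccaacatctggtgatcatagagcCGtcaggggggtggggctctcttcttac
Adcy6, start at 98438064 (chr15:98438065-98438314, minus strand): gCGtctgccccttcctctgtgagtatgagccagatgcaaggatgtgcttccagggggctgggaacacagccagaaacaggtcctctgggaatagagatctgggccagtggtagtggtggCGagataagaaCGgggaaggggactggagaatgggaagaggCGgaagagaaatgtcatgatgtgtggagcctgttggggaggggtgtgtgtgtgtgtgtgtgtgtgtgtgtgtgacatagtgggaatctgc
Adcy8, start at 64753858 (chr15:64753859-64754108, minus strand): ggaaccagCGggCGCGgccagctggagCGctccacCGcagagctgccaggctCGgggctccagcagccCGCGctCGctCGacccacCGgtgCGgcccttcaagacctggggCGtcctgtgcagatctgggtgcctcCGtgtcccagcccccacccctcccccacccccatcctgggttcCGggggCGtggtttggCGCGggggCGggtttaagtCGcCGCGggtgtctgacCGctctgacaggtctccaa
Adcy3, first start at 4133104 (chr12:4132854-4133103, plus strand): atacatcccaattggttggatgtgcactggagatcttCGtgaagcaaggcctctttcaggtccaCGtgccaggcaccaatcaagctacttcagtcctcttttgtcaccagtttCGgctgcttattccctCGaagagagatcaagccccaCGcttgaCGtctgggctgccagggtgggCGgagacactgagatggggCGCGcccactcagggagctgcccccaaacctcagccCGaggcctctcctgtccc

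These windows held 11 CpGs at the first start of Adcy7, 5 at its internal start, 4 at Adcy6, 23 at Adcy8 and 10 at Adcy3, while the median of 45824 windows upstream of annotated starts was 9. The remaining starts of Adcy7, at 90812965 and 90818103, had 3 CpGs each. The letters of a few motifs were searched on both strands. The AP-1 motif TGANTCA was present upstream of 1 of 18 member starts (Adcy7 at 90812965) and of 5.61% of all starts. The cAMP response element TGACGTCA was present at 0 of 18 and at 1.87% of all, and the octamer ATGCAAAT at 0 of 18 and at 1.42%. In the central 300 bases of the 40 H3.3 peaks that members had in D0, AP-1 motifs were found in 5, beside 13.5% of all D0 peaks, and none of the 5 lay in the 11 peaks of Adcy7.

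In D0 fibroblasts, H3.3 was dense over Adcy6, Adcy4 and Adcy7 and thin over the other cyclases. Counting only the part of each peak inside the window and dividing by its length, Adcy6 had 8.34 tags per 10 M per kb, Adcy4 had 6.80 and Adcy7 had 5.18. These densities lay at percentiles 87.1, 82.2 and 75.4 among genes with an H3.3 peak. Adcy2, which is 379.5 kb long, had 0.404 per kb in 13 scattered peaks, and Adcy3, Adcy9, Adcy1 and Adcy8 had between 0.0379 and 0.297. Adcy5, the cyclase best known from striatum and heart, had no H3.3 peak in D0. Most of the 40 member peaks in D0 lay inside genes: 20 in introns, 8 over exons, 9 within 1 kb of a transcript start and 3 at a gene end.

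From D0 to iPSCs, 5 of the 8 members with a peak in either library had less H3.3 (41.6% of all genes with a peak were lower). They were Adcy2, Adcy4, Adcy6, Adcy7 and Adcy8. Adcy7 raised the question, so only the other lower members bear on it. Adcy3 was the 1 member that was higher (24.6% of all genes), while Adcy1 and Adcy9 differed by less than 2-fold and Adcy5 had no peak in either library. Among 5170 genes with a D0 sum of at least 100, which include Adcy2, Adcy4, Adcy6 and Adcy7, 58.6% were lower in iPSCs, so most genes of that level were lower too. Of all genes of at least 50 kb, a length that 7 of the 9 members reach, 50.4% were lower. The call of Adcy8 rests on 1 D0 peak of 8.53 and was not made with an equal number of peaks per library. The median log2 change of the 8 members, Adcy7 included, was -3.27 with 1 added to each sum. It was -2.17 with the lowest listed score in place of a missing peak. Over all genes these medians were -0.55 and -0.52. The member medians include the gene that raised the question and the single small peak of Adcy8. They describe the 8 and do not show a loss shared by the others.

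**Figure D1:**
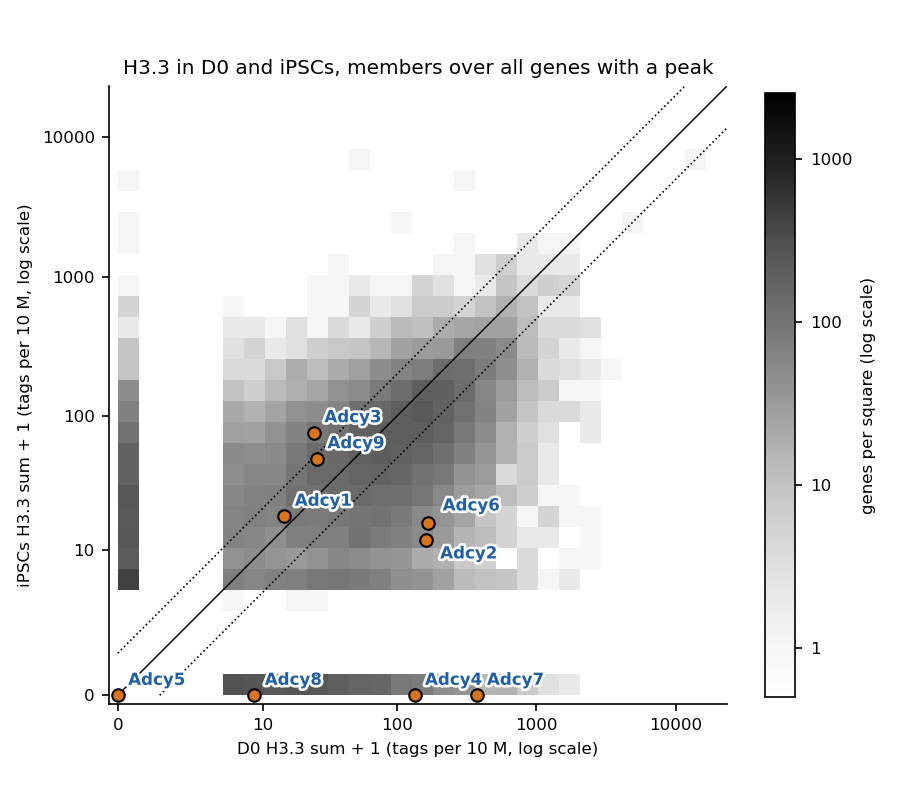
H3.3 sums in D0 (x axis) and iPSCs (y axis), both as tags per 10 M plus 1 on log scales, for the 9 members (orange points) over all genes with a peak in either library (grey squares, darker for more genes); the solid line marks equal sums and the dotted lines 2-fold differences of the sums plus 1. Adcy7, Adcy4 and Adcy8 lie on the lower edge without a peak in iPSCs, Adcy5 lies at the corner without a peak in either library, and Adcy3 is the member furthest above the line.

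Adcy7 had the widest D0 coverage of the family, 11 peaks over 25.1 kb. For its H3.3 sum, D0 had 372 (349.5 to 395.9), D3 had 61.1 (52.0 to 71.5), D6T- had 19.7 (15.0 to 25.5) and D9T- had 15.4 (11.4 to 20.3). No peak was left in D12S+, D16S+, iPSCs or ESD3, whose lowest listed scores were 4.37 to 5.33. The sum was thus lower at each step from D0 to D9T-, as it was for 7.98% of genes with a D0 peak. Of the genes with a D0 sum of at least 100, 1.57% had no peak in all 4 late libraries, and 4.99% had none in iPSCs. The D0 sum includes a peak of 115.7 (90851317 to 90859172) that runs past the gene end into Brd7, a bromodomain gene of chromatin remodelling, and the part inside the Adcy7 window summed to 308.7. Because Adcy7 is also known from blood cells, hematopoietic markers were read in the same libraries: 5 of 7 had H3.3 peaks in D0, with a summed score of 1243, and 4 of 7 in iPSCs, with 138. Ptprc and Tal1 had no peak in either, and Cd34 had none in iPSCs. Their part in the Adcy7 values was not tested.

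Within Adcy7, H3.3 in D0 did not sit on the first start but over the internal start printed earlier. The largest D0 peak, with a score of 130.4, covered 90802698 to 90810818, which is 6.4 to 14.5 kb into the gene. Further D0 peaks of 12.6 and 10.9 flanked the start at 90812965, and a peak of 45.1 lay next to the start at 90818103. No D0 peak came within 1 kb of the first start, although that start carried the strongest H3K4me3 peak of the gene. The position varied along the successful route. In D6T- no H3.3 peak lay near a start, and the 3 peaks of Adcy7 were 52.2 to 57.2 kb into the gene, whereas the 1 peak in D9T- (15.4) covered the internal start.

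**Figure D2:**
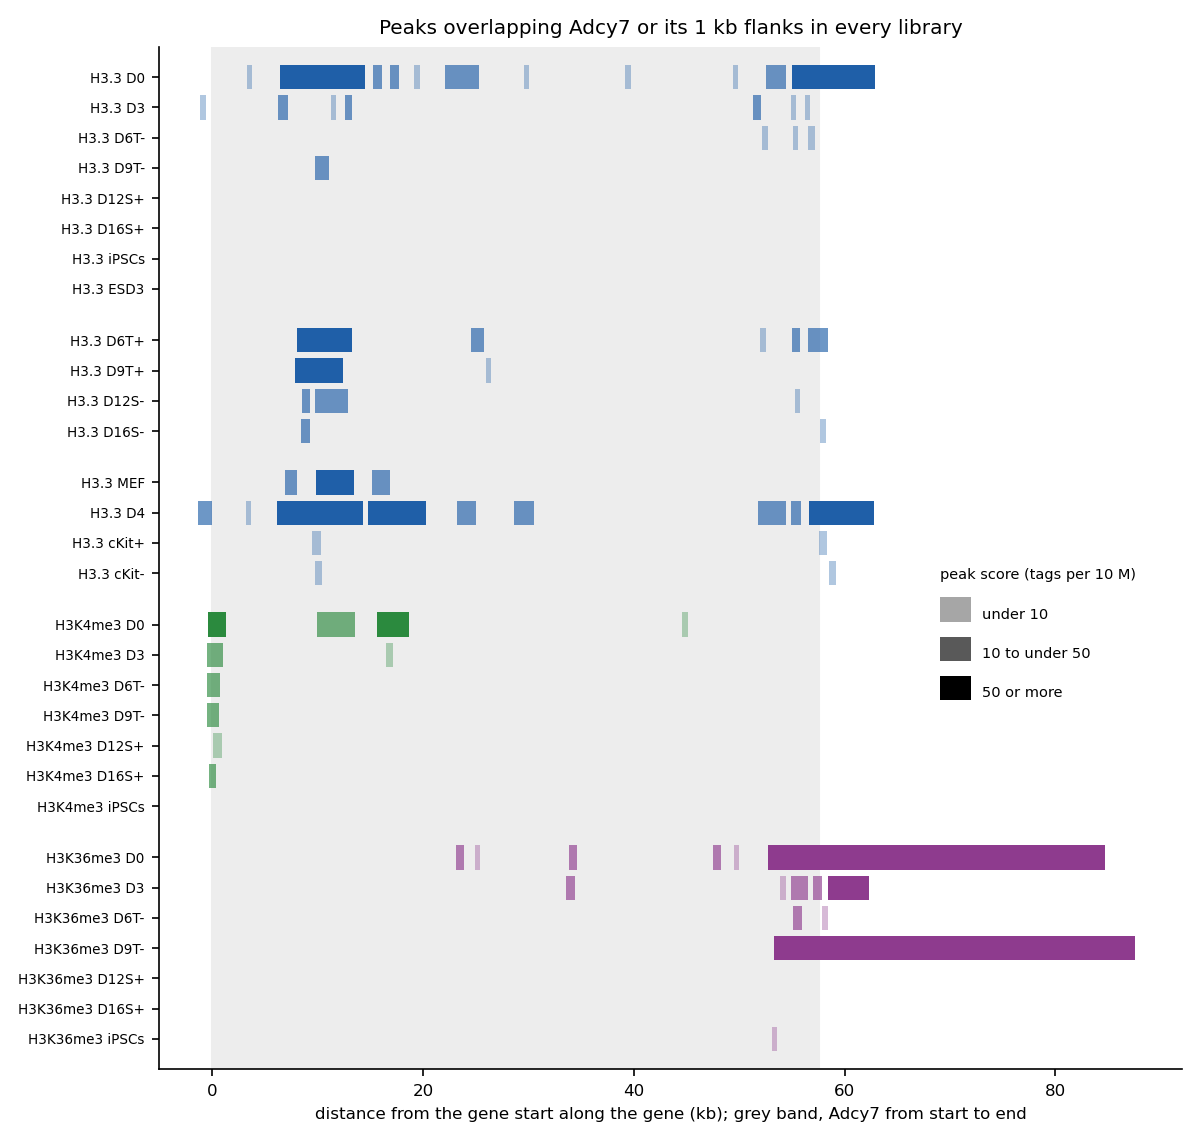
Peaks at Adcy7 in all 30 libraries by distance from the gene start (x axis, kb), 1 row per library and mark, with darker bars for higher peak scores; the grey band is the gene. H3.3 peaks cluster around 10 kb in fibroblasts and unsuccessful fractions and are missing from D12S+ on the successful route, H3K4me3 shrinks to the first start, and the long H3K36me3 bars of D0 and D9T- run past the gene end into Brd7.

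The fractions sorted on the same day asked whether H3.3 at Adcy7 differed between the routes. Adcy7 had more H3.3 in the unsuccessful fraction on 4 of 4 days, which no other member showed with the sums as deposited and which held for 6.5% of genes with a peak in any of these 8 libraries. Its sums were 133 in D6T+ against 19.7 in D6T-, 63.7 in D9T+ against 15.4 in D9T-, 54.8 in D12S- against none in D12S+, and 23.4 in D16S- against none in D16S+. The mean log2 ratio, with 1 added to each sum, was 3.77 (p = 0.12, exact permutation of signs over the 4 days, two-sided, adjusted p = 1 over the 9 members). With 4 days this is the smallest p the test can give, so it cannot reach 0.05.

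The enrichment of the libraries ran in opposite directions on the early and late days. On days 6 and 9 the unsuccessful libraries had the smaller share of tags in peaks (10.9% in D6T+ against 19.3% in D6T-, and 12.1% in D9T+ against 14.8% in D9T-), and only 8.25% and 12.8% of genes were lower by at least 2-fold in the successful fraction. Adcy7 and Adcy2 were the 2 members among them on both days, while 4 members on day 6 (52.5% of all genes) and 3 on day 9 (28.3%) were higher there. On days 12 and 16 the successful libraries were the weaker ones (6.93% in D12S+ against 22.0% in D12S-, and 4.88% in D16S+ against 12.2% in D16S-), and 80.6% and 69.5% of all genes were lower there. So were 6 of 8 members on each of these days, and 1 member was higher, Adcy2 on day 12 (3.73% of all genes) and Adcy3 on day 16 (9.75%). H3.3 on the list of 10 fibroblast markers moved the same way, with summed scores of 3159 in D6T+ and 2251 in D6T-, 3103 and 961 on day 9, 2384 and 108 on day 12, and 905 and 20 on day 16. Peaks lay at 9 or 10 of these markers in the unsuccessful fractions and at 8, 7, 6 and 2 in the successful ones of days 6, 9, 12 and 16, and their part in the Adcy7 values was not tested.

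In the unsuccessful fractions part of the H3.3 at Adcy7 lay over the internal start. Peaks of 71.7 in D6T+ (90804432 to 90809580) and 57.0 in D9T+ (90804156 to 90808700) spanned the internal start, as did a peak of 36.2 in D12S- (90806133 to 90809187). The other peaks of Adcy7 summed to 61.6 in D6T+, 6.68 in D9T+ and 18.6 in D12S-. D16S- had no peak within 1 kb of a start, and its larger peak (15.1) ended more than 1 kb before this start (90804710 to 90805616). Adcy6 and Adcy2 came next after Adcy7 in mean log2 ratio, with 1.96 (higher on 3 of 4 days, p = 0.25) and 2.13 (higher on 3 of 4 days, p = 0.375) in the same exact permutation test, whose adjusted p was 1 for each. With sums scaled to tags inside peaks, with peaks of a fold over input of at least 4, with only the part inside the window or without the flanks, Adcy6 was also higher on 4 of 4 days, so that 2 members were. The other 6 members showed means between -0.63 and 1.35 and no direction held on more than 2 days.

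**Figure D3:**
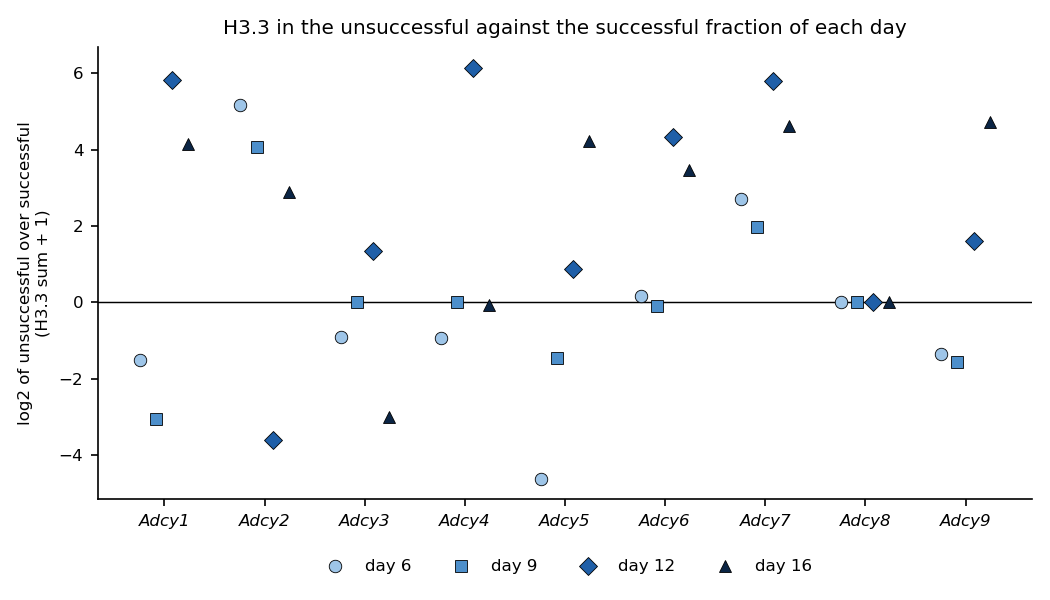
Log2 ratio of the H3.3 sum in the unsuccessful over the successful fraction (y axis, 1 added to each sum) for each member (x axis), 1 symbol per day and pair of libraries. Adcy7 is above 0 on days 6, 9, 12 and 16, between 1.98 and 5.80, Adcy8 has no peak in these libraries, and the other 7 members are above and below 0 or at 0 on some day.

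Adcy6, a cyclase found in most tissues, had small H3.3 peaks in D12S+, iPSCs and ESD3, where Adcy7 had none. The lowest listed score in D12S+ was 5.11. On the successful route D0 had 167 (151.6 to 182.8), D3 had 75.3, D6T- had 81.9, D9T- had 17.3, D12S+ had 6.89, D16S+ had no peak and iPSCs had 16.2. ESD3 had 29.6, all of it inside the window, while only 39.1% of the iPSC sum lay there, since a peak at the gene end extended over the neighbouring 4930415O20Rik. Of the unsuccessful fractions D6T+ had 91.4, D9T+ had 16.0, D12S- had 156.3 and D16S- had 10.0. The D12S- library thus had a sum close to that of D0, and 68.2% of it fell inside the window.

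Adcy4 (14.98 kb long) resembled Adcy6 in its density in D0. In iPSCs Adcy4 had no peak, and Adcy6 had only 6.33 inside its window, beside a lowest listed score of 4.37. Adcy4 had 133 in D0 (119.8 to 147.7), 30.8 in D3, 34.8 in D6T-, 7.47 in D16S+ and 6.01 in ESD3, with no peak in D9T-, D12S+ or iPSCs. D6T+ had 18.0, D12S- 70.2 and D16S- 7.07, and D9T+ had no peak. In D12S- 38.0% of this sum lay inside the window, and part of the D0 sum came from a peak of 61.0 that reaches Ltb4r1, a leukotriene receptor gene just past the gene end.

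Adcy2, best known as a neuronal cyclase, had 160 in D0 (145.3 to 175.9), 6.58 in D3 and no peak in D6T- or D9T-. Later libraries held 11.1 in D12S+, none in D16S+, 12.0 in iPSCs and none in ESD3, and of the unsuccessful fractions D6T+ had 35.1, D9T+ had 15.8, D16S- had 6.34 and D12S- had none. Of its 13 D0 peaks, 12 were intronic and 1 was at the start. Adcy2 thus was 24.3-fold lower in D3, before any sort. The change in Adcy7 over the same days was 6.09-fold. The D0 peaks of Adcy2 scored 5.19 to 23.4, beside lowest listed scores of 4.82 in D0 and 5.03 in D3. The largest D0 peak of Adcy7 scored 130.4. D3 had 11.3% of tags in peaks, against 19.1% in D0. Small peaks that fall under the limit count as 0, so the sizes of these 2 changes cannot be compared.

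Adcy3, the cyclase of olfactory neurons and of primary cilia, was highest in iPSCs. Its sum was 24.5 in D0 (18.9 to 31.2) and 75.3 in iPSCs (67.2 to 84.2), and ESD3 had 28.4. Between them D3 had no peak, and D6T- had 14.5, D9T- had 7.26, D12S+ had 10.2 and D16S+ had 6.93. The 8 iPSC peaks were spread from the start (15.5) through the introns to the gene end, where a peak of 8.14 overlapped Cenpo, a centromere protein gene. ESD3 was at the level of D0, and the iPSC library was 2.65-fold above it.

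Adcy9 and Adcy1 varied without a lasting direction. Adcy9 had 25.8 in D0, 68.1 in D6T-, 48.7 in iPSCs and 42.3 in ESD3, and no peak only in D16S+. Adcy1, a calcium-stimulated cyclase of neurons, had 14.7 in D0, 64.7 in D9T-, 18.2 in iPSCs and 26.3 in ESD3, and no peak in D12S+ or D16S+. Adcy5 had between 6.00 and 24.9 in the 8 libraries in which it had a peak, the highest in D9T-, and Adcy8 had 8.53 in D0 and 16.1 in D3 and none in the other 10 reprogramming libraries.

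**Figure D4:**
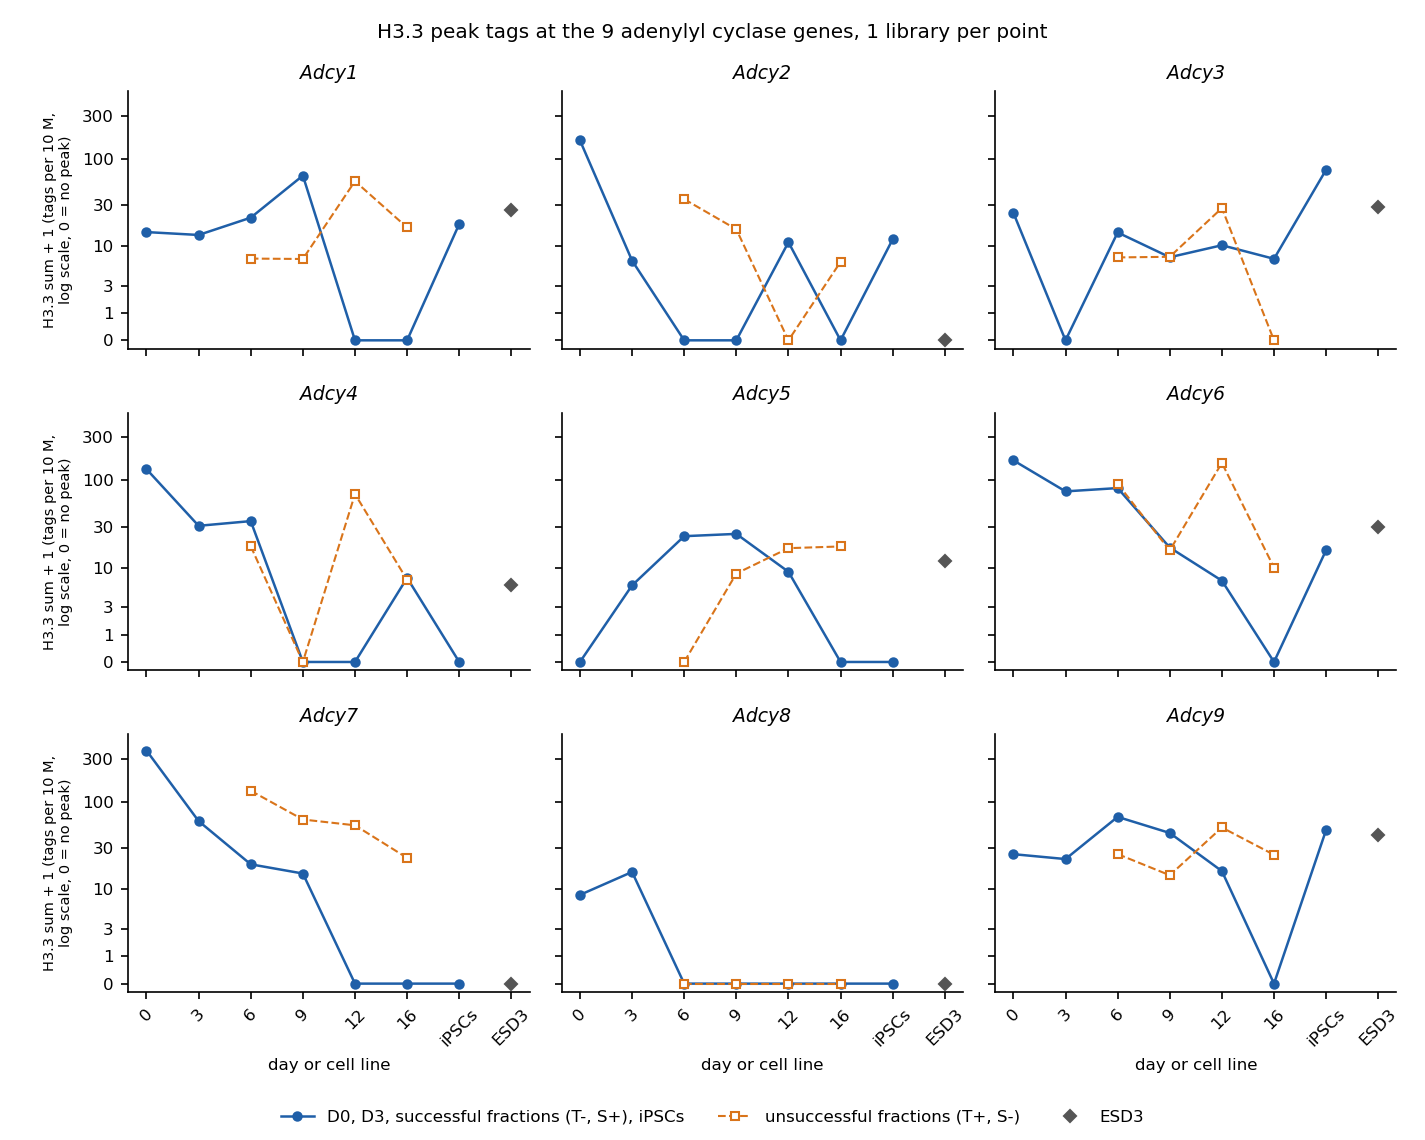
H3.3 sums of each member (y axis, tags per 10 M plus 1, log scale, 0 for no peak) by day or cell line (x axis), 1 library per point, for the successful route (blue line), the unsuccessful fractions (orange squares) and ESD3 (grey diamonds). The orange squares of Adcy7 lie above its blue line on days 6, 9, 12 and 16, Adcy3 is highest in iPSCs, and Adcy8 has peaks only in D0 and D3.

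Counted stage by stage against D0, the lower members on the successful route were 5 of 9 in D3 (40.6% of all genes), 5 of 9 in D6T- (24.9%), 6 of 9 in D9T- (36.5%), 7 of 9 in D12S+ (63.8%) and 8 of 8 in D16S+ (75.7%). Adcy2, Adcy4, Adcy6 and Adcy7 were lower at every one of these stages. D3 had 1 higher member (10.5%), D6T- had 2 (29.6%), D9T- had 2 (21.9%), D12S+ had 1 (10.7%) and D16S+ had none (8.99%). Adcy5, without a peak in D0, was among them in each but D16S+.

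The embryonic stem cell line had the same 5 lower members as iPSCs, Adcy2, Adcy4, Adcy6, Adcy7 and Adcy8 (65.7% of all genes were lower in ESD3), with Adcy5 higher (14.6%). From iPSCs to ESD3, 2 of 7 members were lower (55.2%), Adcy2 and Adcy3, and 2 were higher (9.56%), Adcy4 and Adcy5, which had a peak in ESD3 and none in iPSCs.

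Against D0, the unsuccessful fractions had 6 of 8 members lower in D6T+ (46.7%) and none higher (6.26%), and 7 of 9 lower in D9T+ (43.7%) with 1 higher (12.4%). D12S- had 3 lower (19.6%), Adcy2, Adcy7 and Adcy8, and 3 higher (34.1%). D16S- had 6 lower (41.1%) and 1 higher (15.7%). Adcy7 was thus below its D0 level in the unsuccessful fractions too, from 2.79-fold in D6T+ to 15.9-fold in D16S-.

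The fibroblast starting level was gauged with the MEF library of the transdifferentiation system. From D0 to MEF, 5 members were lower by at least 2-fold (66.8% of all genes) and Adcy5 was higher (7.18%). The lower members were Adcy2, Adcy4, Adcy6, Adcy7 and Adcy8, the same 5 that were lower from D0 to iPSCs and to ESD3. These calls thus also arose between 2 fibroblast libraries, without reprogramming. The paper's methods describe the removal of cells with hematopoietic markers for the transdifferentiation system only. Differences between the cells and between the libraries cannot be told apart here. Adcy7 was among the lower, with 97.5 in MEF (88.8 to 106.9). The median log2 change over all genes was -1.59 between these libraries of fibroblasts, so the level of H3.3 at a gene in D0 is known only within such a difference. With MEF in place of D0, Adcy2, Adcy4, Adcy6 and Adcy7 were again lower in iPSCs (20.6% of all genes), now with Adcy5 in place of Adcy8.

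H3K4me3 was present at the start of every cyclase gene in D0, also at those without H3.3. All 9 members had a peak within 1 kb of a transcript start in D0 (66.1% of all genes), D3 (64.7%), D6T- (65.7%), D9T- (64.7%) and D12S+ (62.5%). The count was 6 of 9 in D16S+ (45.9%) and 8 of 9 in iPSCs (64.5%). H3.3 accompanied it at 6 of 9 in D0 (62.3% of genes with such a H3K4me3 peak) and at 4 of 8 in iPSCs (70.7%). From D0 to iPSCs, 7 of 9 members had less H3K4me3 (71.2% of all genes), and none had more (5.53%). The median log2 change of all genes in this comparison was -1.38. When sums were scaled to the tags inside peaks, that median was -0.14 and only Adcy2 and Adcy7 were lower (16.3% of all genes).

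Adcy7 was the 1 member without H3K4me3 in iPSCs, which 5.94% of genes with a D0 peak shared. For H3K4me3, D0 had 197 (181.6 to 214.2), D3 had 54.6 (46.5 to 63.7), D6T- had 36 (29.9 to 43.0), D9T- had 26.8 (21.3 to 33.3), D12S+ had 8.28 and D16S+ had 12.0. In D0 there were 3 start peaks, 85.1 at the first start, 47.1 at the internal start and 59.2 at 90812965. The internal start had none from D3 on, that at 90812965 had 9.61 in D3 and none later, and the first start kept the only peak from D6T- to D16S+. In D3, H3.3 peaks of 6.97 and 12.2 lay within 3 kb of the internal start. The start peaks of H3K4me3 were sought within 1 kb, and calling required a fold over input of 4 for H3K4me3 and 2 for H3.3. With these unlike limits, no order of loss between the marks can be read.

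Adcy7, Adcy2, Adcy4 and Adcy8 were the members whose H3K4me3 was lower early. In D3 these 4 of 9 were lower by at least 2-fold (10.2% of all genes), and the same 4 in D6T- (7.79%), where the median log2 change of all genes was 0.23. None was higher in D3 (1.48%) or D6T- (5.93%). Adcy5 joined them in D9T- (16.5% lower, and none higher beside 3.69%), and all 9 were lower in D12S+ (89.6%, none higher beside 2.17%) and in D16S+ (97%, none higher beside 1.49%). At Adcy2, D0 had 206, D3 had 96.1, D6T- had 74.9, D9T- had 41.8, D12S+ had 20.5, D16S+ had no peak and iPSCs had 33.8. At Adcy4, D0 had 180, D3 had 64.2, D6T- had 75.4, D9T- had 47.7, D12S+ had 8.65, D16S+ had no peak and iPSCs had 42.6. The count in D3 depended on the processing: Adcy4 and Adcy7 alone were lower in D3 with sums scaled to tags inside peaks, whereas all 4 stayed lower in D6T-.

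Adcy8, a calcium-stimulated cyclase of the brain, carried one of the larger H3K4me3 sums of the family with little H3.3. For H3K4me3, D0 had 247 (229.2 to 265.6), D3 had 122, D6T- had 105.5, D9T- had 80.8, D12S+ had 51.3, D16S+ had 8.85 and iPSCs had 61.3, while no H3.3 peak lay within 1 kb of its start in any of these stages. The start of Adcy8 is also the richest in CpG of those printed. Adcy3 and Adcy1 differed by less than 2-fold between D0 and iPSCs, with 129 and 93.4 at Adcy3 and 89.2 and 54.3 at Adcy1. Adcy6 had 333 in D0 and 87.8 in iPSCs, of which 53.8% and 49.1% lay in the window, since its start peak extends upstream.

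**Figure D5:**
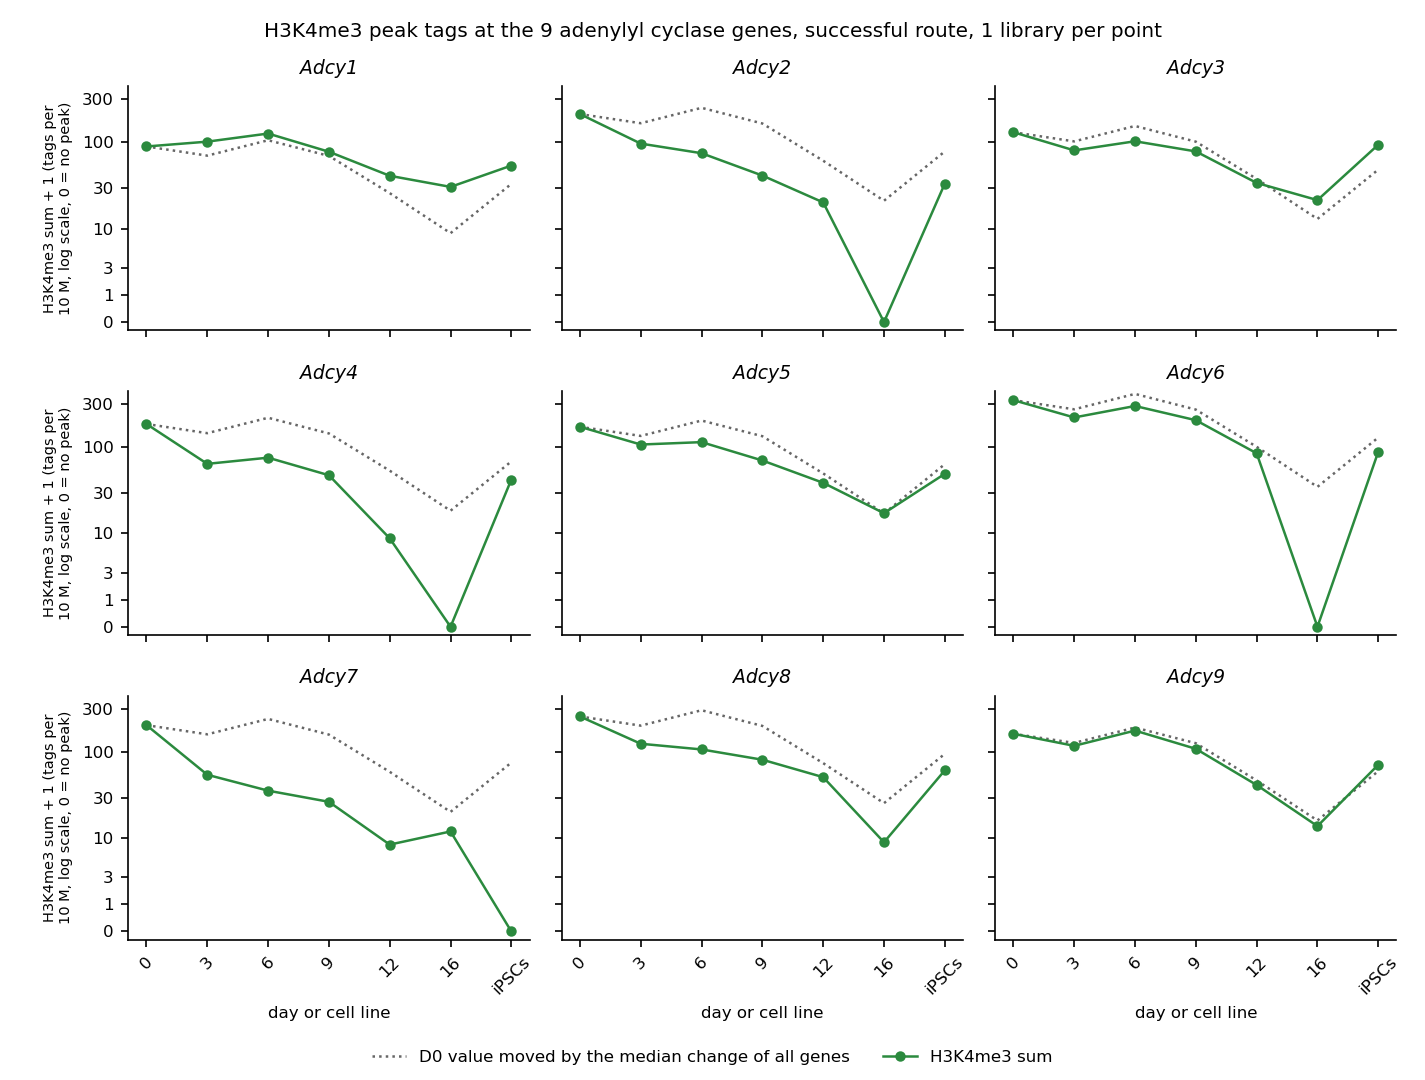
H3K4me3 sums of each member (y axis, tags per 10 M plus 1, log scale, 0 for no peak) by day or cell line along the successful route (x axis), 1 library per point; the dotted line is the D0 value moved by the median log2 change of all genes in each library. All members but Adcy1 run below the dotted line on days 3, 6 and 9, with Adcy7, Adcy2, Adcy4 and Adcy8 furthest below it on each of these days, and Adcy7 alone has no peak in iPSCs.

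H3K36me3 was found on 5 members in D0, Adcy2, Adcy3, Adcy4, Adcy6 and Adcy7, and all 5 were lower in iPSCs (88.9% of all genes with a peak were lower and 6.66% higher). Adcy6 had 202 in D0 (184.9 to 220.9), 53.9 in D3, 6.5 in D6T- and 185 in D9T-, and no peak in D12S+, D16S+ or iPSCs. Adcy2 had 159, 8.13, 10.6 and 26.1 in the same 4 libraries and none later. At Adcy7 the D0 sum of 793 came mostly from a peak of 746 (90848962 to 90880960) that covers Brd7, and 184.7 lay inside the Adcy7 window. The D9T- sum of 1107 was 1 such peak with 15.3% of its length in the window, and the only iPSC peak scored 6.38.

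By stage, the 5 members with H3K36me3 in D0 were all lower in D3 (63.1% of all genes), D6T- (85.1%), D12S+ (97.3%) and D16S+ (95.3%). Higher members were Adcy9 in D3 (4.88%) and none in D6T- (3.4%), D12S+ (2%) or D16S+ (3.09%). D9T- went the other way, with Adcy2 lower (14.8%) and Adcy1, Adcy3 and Adcy5 higher (34.4%), and it had the largest share of H3K36me3 tags inside peaks, 42.4%.

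The H3K36me3 of Adcy3 overlapped Cenpo in iPSCs at each of its 3 peaks, with a sum of 35.2 there against 99.8 in D0. Its direction turned with the processing, as Adcy3 was higher in iPSCs with an equal number of peaks per library or with sums scaled to tags inside peaks. In iPSCs 2.88% of H3K36me3 tags lay inside peaks, against 31.3% in D0. Adcy1, Adcy5, Adcy8 and Adcy9 had no H3K36me3 peak in D0 or iPSCs, and the highest sum of these 4 in any library was 10.5, at Adcy1 in D9T-.

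In transdifferentiation, H3.3 at most cyclases, and at most genes, was higher in D4 and lower in the sorted cells than in MEF. All 9 members were higher in D4 than in MEF (95.2% of all genes, and 1.32% lower), with 37.2% of tags in peaks in D4 and 7.64% in MEF, and 7 of 8 members with a peak were lower in cKit+ than in MEF (74.9%) and none higher (10.4%), with 1.65% of tags in peaks in cKit+. The same 7 were lower in cKit- (70.7%) and none was higher (13.5%), with 2.31% of tags in peaks in cKit-. With 1 library per group, enrichment and cell state cannot be told apart. Between the sorted cells, Adcy9 was lower in cKit+ than in cKit- (36.5%) and none was higher (30.3%). Adcy7 had 97.5 in MEF, 403 in D4 (387.6 to 418.9), 13.8 in cKit+ (11.5 to 16.5) and 18.0 in cKit- (14.6 to 22.1). Adcy9 had 23.1, 175, 13.4 and 33.1 in the same order. Adcy7 and Adcy9 were the 2 members with any peak in the sorted cells, and Adcy7, a prominent cyclase of blood cells, was the 1 member with a peak near a start there (9.56% of all genes in cKit+ and 11.4% in cKit-).

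Those start peaks at Adcy7 were small, 7.63 in cKit+ (90805818 to 90806596) and 9.60 in cKit- (90806066 to 90806691), and lay within 1 kb upstream of the internal start. With sums scaled to tags inside peaks, Adcy7 was not lower in cKit+ than in MEF, with a log2 change of -0.59. Of the 7 hematopoietic markers matched in the annotation, cKit+ had H3.3 peaks at 5, Cd34, Tal1, Gata2, Runx1 and Itgam, and none at Ptprc or Kit. In cKit- there were also peaks at 5, Ptprc among them, and none at Kit or Gata2.

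Beyond the cyclases, 59 genes of the cAMP pathway were followed from the receptors to the phosphodiesterases. Of the 55 with an H3.3 peak in D0 or iPSCs, 32 were lower in iPSCs (58.2%, beside 41.6% of all genes), 4 were higher (7.27%, beside 24.6%) and 19 were neither. The higher count was 1 with peaks of a fold over input of at least 4 and 18 with MEF in place of D0, where 52.9% of all genes were higher. The median log2 change was -1.54 with 1 added to each sum. Among all genes of at least 50 kb, 50.4% were lower and 19.7% higher. Of the 34 pathway genes of that length, 20 were lower and 2 higher. Phosphodiesterases, which degrade cAMP, were lower in 13 of 16 cases and higher in none, and receptors in 6 of 8 with 1 higher.

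The other groups were counted in the same way, without a test of differences between groups. Over all genes 41.6% were lower and 24.6% higher. Groups of so few genes are given as counts and not read as different from these shares. Among G protein alpha subunits, 1 of 6 was lower and 1 higher, among subunits and inhibitors of protein kinase A 4 of 7 were lower, among Epac and CREB family genes 4 of 8, and among the anchoring proteins (AKAPs) 4 of 9 were lower and 2 higher. The soluble cyclase gene Adcy10 was neither, with 18.3 in D0 and 23.2 in iPSCs.

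Of the lower genes, Akap13, Pde4d, Crtc3 and Prkar1a had the largest D0 sums. Akap13, an anchoring protein, had 1130 in D0 and 88.2 in iPSCs. Pde4d had 806 and 231, Crtc3, a coactivator of CREB, 596 and 82.3, and Prkar1a, a regulatory subunit of protein kinase A, 373.5 and 12.0. Of the higher genes, Akap12 had 221 and 969, Gnal, the alpha subunit of olfactory neurons, 6.68 and 49.9, and Akap5 6.86 and 22.6.

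The genes whose H3.3 course was most like that of Adcy7 were sought beyond the pathway list. Those named here are not on that list. It holds only 59 genes, far fewer than the candidates, so their absence from it says nothing about the pathway. Over the 12 reprogramming libraries, and among 7947 genes with a D0 sum of at least 50, Pearson's r with Adcy7 on the log2(sum + 1) scale was highest for Esyt2 (0.988), Osmr (0.987), Pla2g4a (0.987), Usp47 (0.987) and Uroc1 (0.985). The median r of all candidates was 0.629 and the 90th percentile 0.845. All candidates share the 12 libraries, with their depth and enrichment, and the minimum sum in D0. Osmr, the receptor of oncostatin M, had 304 in D0 and no peak in D12S+, D16S+, iPSCs or ESD3. Pla2g4a, a cytosolic phospholipase, had 356.5 and none in the same 4 libraries. Both genes were picked for their likeness to Adcy7 over libraries that include these 4. Their late loss therefore describes the selection and is not a separate result. Within the family the most similar course was that of Adcy6 (r = 0.708), followed by Adcy4 (0.583), Adcy8 (0.484) and Adcy2 (0.470), and r was between -0.285 and 0.387 for the other 4.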

How the data were processed

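The deposited peak lists of 30 ChIP-Seq libraries were analysed, and 16 inputs entered only through the fold over input. Per the paper's methods and the file headers, the authors mapped reads to mm9 with STAR, removed reads with over 2 mismatches or at more than a single locus, and called peaks per library with HOMER findPeaks (histone style, 500 bp, Poisson p 0.0001, a fold over input of 2 for H3.3 and 4 for the other marks). Tool versions are not given in the sources used here. The deposited signal is a normalized tag count per peak, put by the authors on a scale of 10 M tags with no input subtracted. The deposited fold over input is a ratio.

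Peak scores were summed over each of 22238 protein-coding genes of GENCODE vM1 (the longest entry per symbol) with 1 kb on each side (Python 3.11.15, numpy 2.4.6, scipy 1.17.1, matplotlib 3.10.9). A peak over several genes counted for each. Counting intervals are 95% Poisson intervals. With 1 library per group no test across genes was made, and sorted fractions were compared by an exact sign-flip permutation test over 4 days. The code was tested on simulated data. Named genes were all 9 members, the 4 pathway genes in each direction with the largest sums, and the 5 genes most correlated with Adcy7. One gene that this rule names is not reported here. The members, lists and tests were chosen with earlier results of these data known.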

Additional observations from a re-analysis of the deposited data

How the results depend on the processing

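The comparisons of D0 with iPSCs for each mark, of D0 with D3 and D6T- for H3K4me3, of MEF with cKit+ and of the sorted fractions were recomputed with peak lists shortened to the same length by score, only the part of each peak inside the window, no flanks and sums scaled to tags inside peaks. All but MEF with cKit+ were recomputed with a higher fold over input, and all but the sorted fractions with a 3-fold or 1.5-fold limit. The other stage-wise comparisons were not recomputed. No paired analysis was possible because each group had 1 library, other than the pairing of fractions by sorting day in the sign-flip test. The count of members lower in H3.3 from D0 to iPSCs was 4 or 5 under each of these. It was 5 with MEF or ESD3 in place of an end point. Both replacements were chosen after seeing the data, as were the early H3K4me3 and day-wise alternatives below. The share of all genes lower was 41.6% as deposited, 78.2% at a fold over input of at least 4, 20.6% from MEF and 65.7% with ESD3. Like counts thus stood beside unlike shares. The members also varied, with Adcy1 in place of Adcy8 at a fold over input of at least 4 and Adcy5 in its place from MEF.

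Members higher in H3.3 numbered 2 with lists of the same length (28.1% of all genes), with scaling to tags inside peaks (30.2%), at 1.5-fold (29.7%) and from MEF (52.9%). Members higher in the unsuccessful fraction on each day numbered 2 at a fold over input of at least 4 (11.1% of all genes) and with scaling to tags inside peaks (11.2%). They also numbered 2 with the inside share (6.9%) and without flanks (6.09%). In each of these cases they were Adcy6 and Adcy7. Without days 12 and 16 they were 2 as well, Adcy2 and Adcy7 (9.23%). H3K4me3 was lower in 2 members after scaling to tags inside peaks (16.3% of all genes). In D3 it was lower in 2 with lists of the same length (5.84%) or that scaling (6.62%). It was lower there in 1 at a fold of at least 8 (11.1%) or at 3-fold (5.8%), and in 7 at 1.5-fold (24.8%). In D6T- it was lower in 1 at 3-fold (4.92%). H3K36me3 was lower in 3 with lists of the same length (84.1%) and in 2 at a fold of at least 8 (74.7%). It was higher in 1, Adcy3, with lists of the same length (log2 change 4.51, 14.3% of all genes) and with scaling to tags inside peaks (1.89, 24.5%). In transdifferentiation 1 member, Adcy9, was higher in cKit+ after that scaling (27.2%). Pathway genes higher in iPSCs numbered 1 at a fold of at least 4 (12.1%), 18 from MEF (52.9%) and 2 with ESD3 (14.6%). The median log2 change of all genes moved with scaling to tags inside peaks from -0.55 to -0.10 for H3.3, from -1.38 to -0.14 for H3K4me3 and from -3.68 to -0.66 for H3K36me3. For each of these changes the cause was not tested.

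Depth and enrichment limit what a missing peak shows, most of all in D12S+ and D16S+, and counting intervals do not cover variation between libraries.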
